A study of Arabidopsis thaliana with 28 samples.

Results

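Copia retroelements whose RNA is abundant in wild-type Arabidopsis thaliana seedlings are described here across 6 RNA libraries. Members were chosen from the authors' table of transposable element families as the entries assigned to Copia with a wild-type mean of at least 100 normalised counts, leaving out ATCOPIA93, ATCOPIA78, ATCOPIA13 and ATCOPIA21 by name. This gave 10 families of the 25 Copia families and 83 named families listed: ATCOPIA4, ATCOPIA36, ATCOPIA62, ATCOPIA37, ATCOPIA75, ATCOPIA12, ATCOPIA74, ATCOPIA41, ATCOPIA8B and ATCOPIA66. Because the wild-type mean chose them, and because the table lists only families with an adjusted p below 0.05 between the genotypes, the wild-type levels and the changes in caa39 are given as descriptions, without a test. Log2 fold changes from limma are given for their SEs.

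The study compared the wild type, Col0 in the labels, with the caa39 mutant, using 3 stranded mRNA libraries for each from the aerial parts of 6 day-old seedlings grown on sucrose-containing medium in long days. caa39 is a mutant of topoisomerase VI, an enzyme that passes one DNA duplex through another, and the series concerns a role of this enzyme in keeping heterochromatin from spreading. The labels call one genotype wild type and the other caa39 mutant and give no allele, complemented line or second mutant, so the genotype contrast rests on one mutant line. The series design calls the 3 samples of a genotype biological replicates. Immunoprecipitated chromatin and bisulfite data were not analysed here.

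Copia elements are retrotransposons with long terminal repeats. Their RNA, transcribed from one repeat, is both the messenger for the capsid, protease, integrase and reverse transcriptase and the template from which a new DNA copy is made. In Arabidopsis most copies are held silent by DNA methylation and methylation of histone H3 at lysine 9. Single copies that sit in or beside genes can be transcribed all the same, as is known for ATCOPIA4, which has a copy at a locus for resistance to downy mildew. A family's value sums reads over its copies, so it does not tell which copy gave the RNA, and related families may share reads.

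Of the 10 families 8 were lower and 2 were higher in caa39 in the authors' deposited table. ATCOPIA74, ATCOPIA62 and ATCOPIA12 fell to between 0.0586 and 0.256 of their wild-type level, ATCOPIA37, ATCOPIA66, ATCOPIA36 and ATCOPIA41 to between 0.551 and 0.657, and ATCOPIA4 to 0.825. ATCOPIA8B rose 2.23-fold and ATCOPIA75 1.38-fold in the authors' deposited table. ATCOPIA4 alone turned direction, to a ratio of 1.02, when libraries were scaled to their listed reads. Adjusted p-values of the 10 in the authors' deposited table ran from 3.26e-76 to 0.0182. All listed families are past that threshold by construction (100% of 83), with 51.8% of them lower and 48.2% higher in caa39, so nothing is read from the counts of calls.

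**Figure D1:**
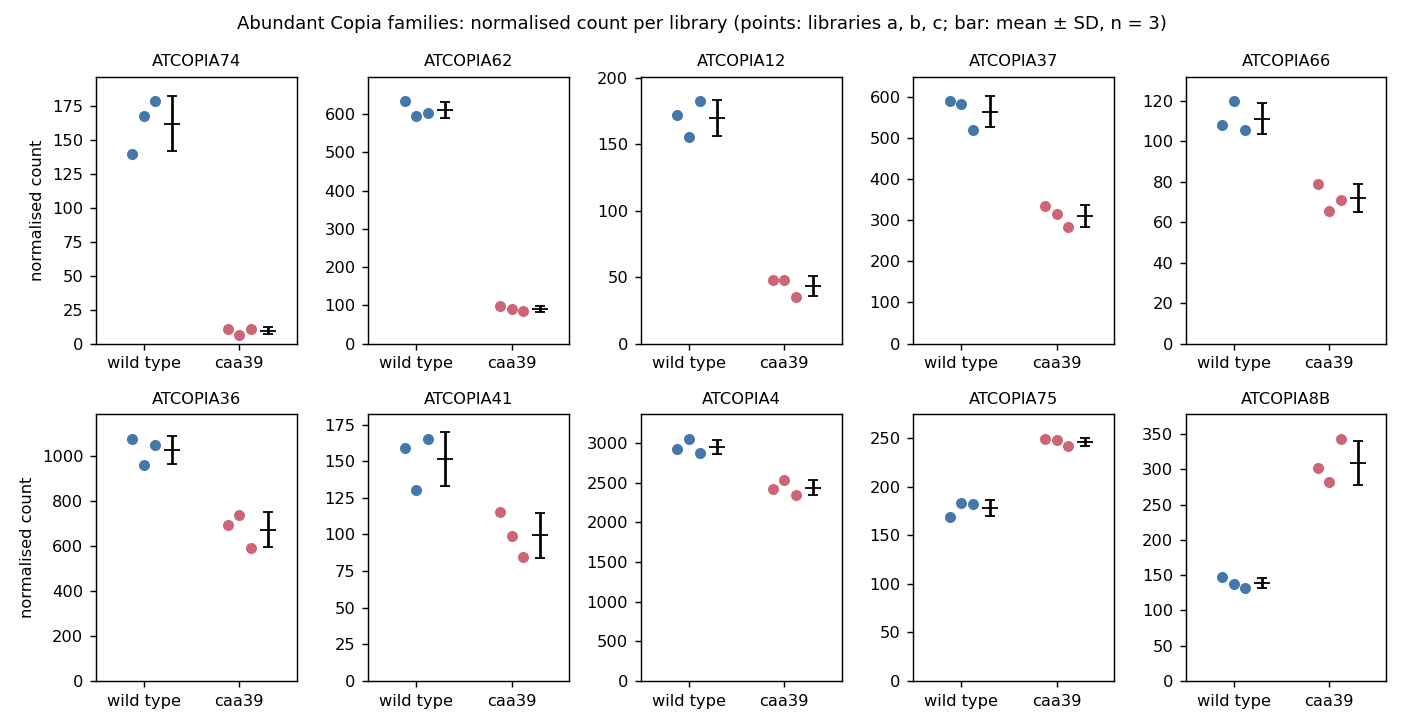
Normalised count (y axis, starting at 0, own scale per panel) of each of the 10 families in the 3 wild-type and 3 caa39 libraries. Points are libraries a, b and c from left to right, and bars are mean ± SD. In all 10 panels the groups do not overlap, as in 98.8% of all listed families, and only ATCOPIA75 and ATCOPIA8B lie higher in caa39.

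Values per library were solved from the deposited group means and are given as normalised counts, that is, reads divided by the size factor of the library. Within a genotype the libraries are lettered a, b and c from the largest size factor to the smallest, with no tie to replicate numbers. Wild-type libraries held 22924 to 26678 listed reads and caa39 libraries 20791 to 31566, and 1 read was worth 0.732 to 1.22 normalised counts. The listed total fell from 28433 ± 662 normalised counts to 22961 ± 190.1 (SD, n = 3 each). In these bulk samples fewer cells that transcribe a family and less RNA per cell cannot be told apart.

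ATCOPIA74 stood out by the depth of its fall. In library order its wild-type values were 139.9, 168 and 179 normalised counts, and its caa39 values 11.0, 6.62 and 10.9. Every caa39 library lay far below every wild-type library, as 425 wild-type reads faced 33 from caa39. The mean went from 162 ± 20.1 to 9.51 ± 2.51 (SD, n = 3 each), a ratio of 0.0586, and limma gave a log2 fold change of −4.05 ± 0.23 (SE). The caa39 level rests on 8 to 15 reads per library, and its coefficient of variation of 26.4% was the largest among the 10 families.

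ATCOPIA62 fell deeply from a higher level. Its wild-type values were 634, 594 and 604, and its caa39 values 98.1, 89.3 and 84.2. No caa39 library came near the wild type, the gap between the lowest wild-type and the highest caa39 library being 496 normalised counts. Its mean went from 611 ± 20.5 to 90.6 ± 7.02 (SD, n = 3 each), a ratio of 0.148 and a log2 fold change of −2.75 ± 0.09 (SE) in limma. Libraries of one genotype differed by less than counting alone would give, with an SD of 0.778 times the counting SD in the wild type and 0.788 times in caa39.

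ATCOPIA12 was the third family with a deep fall. Its wild-type libraries held 172, 156 and 182 normalised counts, and its caa39 libraries 47.6, 48.0 and 35.0. Groups were well apart, with caa39 library c the lowest. The ratio was 0.256, from 170 ± 13.5 to 43.5 ± 7.37 (SD, n = 3 each), and the log2 fold change in limma was −1.96 ± 0.16 (SE).

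Beyond these 3, no member had a ratio between 0.256 and 0.551. ATCOPIA37 came next, with 588, 582 and 519 normalised counts in wild-type libraries and 334, 314 and 282 in caa39 libraries. The lowest wild-type library exceeded the highest caa39 library by 185 normalised counts. ATCOPIA37 thus went from 563 ± 38.2 to 310.1 ± 26.1 (SD, n = 3 each), a ratio of 0.551 and a log2 fold change of −0.86 ± 0.11 (SE) in limma.

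ATCOPIA36, the second family by reads, held 1076, 957 and 1047 normalised counts in wild-type libraries and 693, 736 and 589 in those of caa39. It varied between libraries by more than counting gives, with an SD of 1.80 times the counting SD in the wild type and 3.13 times in caa39, the largest such excess among the 10. The groups remained apart, at 1027 ± 61.8 and 672 ± 75.7 (SD, n = 3 each), a ratio of 0.655.

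ATCOPIA66 and ATCOPIA41 gave ratios of 0.646 and 0.657, near that of ATCOPIA36, on fewer reads. For ATCOPIA66 the wild-type libraries held 108, 119.8 and 106 normalised counts and the caa39 libraries 79.1, 65.3 and 71.1. For ATCOPIA41 they held 159, 130.2 and 165, and 115, 99.2 and 84.2. ATCOPIA41 had the narrowest gap of the 10, with 15.2 normalised counts between wild-type library b and caa39 library a, and on the scale of listed reads its groups overlapped. In limma the log2 fold changes were −0.63 ± 0.11 for ATCOPIA66, −0.61 ± 0.12 for ATCOPIA36 and −0.61 ± 0.16 for ATCOPIA41 (SE), so these 3 lie within one SE of each other.

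ATCOPIA4 had by far the most reads, 7783 over the wild-type libraries and 8530 over those of caa39 before division by size factors. The wild-type libraries held 2923, 3057 and 2882 normalised counts and the caa39 libraries 2428, 2537 and 2348. All caa39 libraries were lower, by at least 345 normalised counts. The mean went from 2954 ± 91.6 to 2438 ± 94.9 (SD, n = 3 each), a ratio of 0.825. As a ratio this was the smallest change of the 10, while in normalised counts the fall of 516 came close to the largest, 520 for ATCOPIA62. On the scale of listed reads its wild-type values were 2657, 2694 and 2658 and its caa39 values 2699, 2832 and 2652. There the groups overlapped, with a ratio of 1.02 and a log2 fold change of 0.031 ± 0.077 (SE) in limma. The direction of ATCOPIA4 therefore depends on the scale chosen. The scale of listed reads uses only the listed entries, and the 10 families, ATCOPIA4 among them, hold 21.3% of their wild-type counts. It takes out the fall of the listed total by construction, so it does not show which direction is right.

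The 2 families that rose were among those with fewer reads in the wild type. ATCOPIA8B held 147, 137 and 132 normalised counts in wild-type libraries and 302, 282 and 344 in caa39 libraries. All caa39 libraries lay above the wild type, by at least 135 normalised counts, and the mean went from 139 ± 7.60 to 309 ± 31.4 (SD, n = 3 each), with a log2 fold change of 1.15 ± 0.11 (SE) in limma. ATCOPIA75 held 169, 183 and 182 in wild-type libraries and 249.7, 248 and 242 in caa39 libraries. Its groups were also apart, by 58.6 normalised counts, at 178 ± 8.22 and 247 ± 4.17 (SD, n = 3 each), a log2 fold change of 0.47 ± 0.08 (SE) in limma. The caa39 libraries of ATCOPIA75 differed by a coefficient of variation of 1.69%, the smallest among the 10 families in either genotype. This is less than counting alone would give, with an SD of 0.283 times the counting SD, so it does not measure precision.

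Together the 10 families went from 6066 ± 60.6 to 4291 ± 178 normalised counts (SD, n = 3 each), a change of −29.3%. The wild-type libraries a, b and c summed to 6116, 6084 and 5998 and the caa39 libraries to 4358, 4426 and 4090, so the groups did not overlap. The sum of the 8 lower families fell by 2014 normalised counts with the authors' size factors, or fell by 1498 without ATCOPIA4, whose direction turns on the scale of listed reads. That of the 2 higher families rose by 239. Without ATCOPIA4 they summed to 3112 ± 82.7 and 1853 ± 98.7 (SD, n = 3 each), a ratio of 0.596 against 0.707 with it. Of all listed counts, unassigned elements included, the 10 families held 21.3% (wild type) and 18.7% (caa39).

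**Figure D2:**
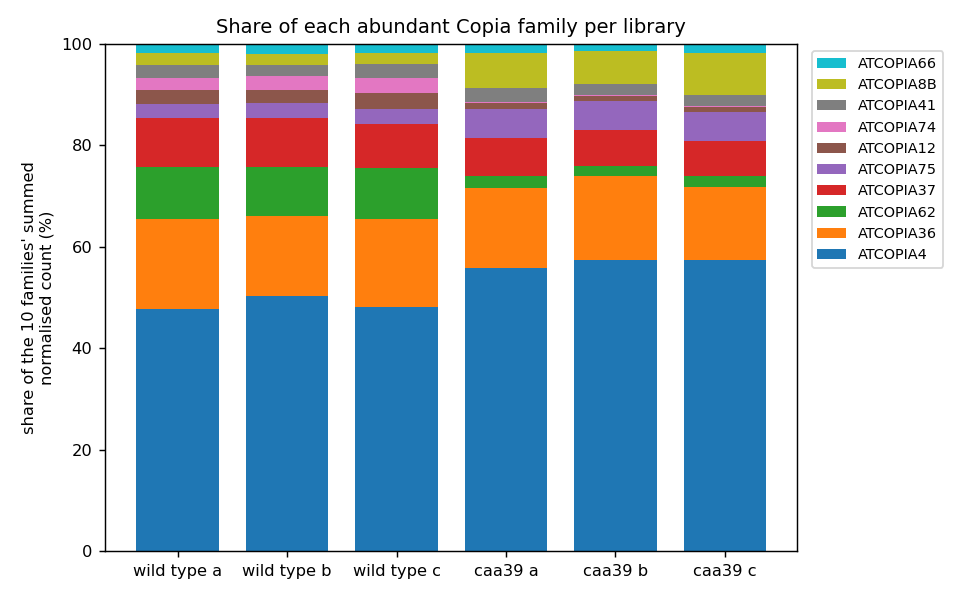
Share in percent (y axis) of each of the 10 families in their summed normalised count, one bar per library. ATCOPIA4 holds 47.8% to 50.2% in wild-type libraries and 55.7% to 57.4% in caa39 libraries, while ATCOPIA62 holds 9.77% to 10.4% and then 2.02% to 2.25%.

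Shares within the 10 families do not depend on how libraries are scaled. ATCOPIA4 went from 48.7 ± 1.35% of their sum to 56.8 ± 0.951% (SD, n = 3 each). ATCOPIA62 went from 10.1 ± 0.297% to 2.11 ± 0.125% and ATCOPIA74 from 2.68 ± 0.354% to 0.223 ± 0.0642% (SD, n = 3 each). ATCOPIA8B went the other way, from 2.29 ± 0.105% to 7.24 ± 1.05%, and ATCOPIA75 from 2.94 ± 0.156% to 5.75 ± 0.154% (SD, n = 3 each). ATCOPIA36 held 16.9 ± 1.03% and 15.6 ± 1.14%, ATCOPIA41 2.50 ± 0.321% and 2.31 ± 0.296%, and ATCOPIA66 1.83 ± 0.118% and 1.68 ± 0.178% (SD, n = 3 each), and the libraries of the genotypes overlapped in these 3 shares.

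The order of the families by normalised count changed between the genotypes. These values are not divided by the length or copy number of a family, neither of which the table holds, so the order is one of reads and not of transcripts. In the wild type ATCOPIA4, ATCOPIA36, ATCOPIA62 and ATCOPIA37 followed each other with no overlap of libraries between neighbours. From ATCOPIA75 through ATCOPIA12, ATCOPIA74 and ATCOPIA41 to ATCOPIA8B, at means of 178 down to 139, the libraries of every neighbouring pair overlapped, and ATCOPIA66 stood apart at the end. In caa39 ATCOPIA62 stood in place 7 instead of 3, ATCOPIA8B in place 4 instead of 9 and ATCOPIA74 in place 10 instead of 7. Only ATCOPIA37 with ATCOPIA8B and ATCOPIA41 with ATCOPIA62 were neighbours with overlapping libraries in caa39. ATCOPIA12 and ATCOPIA74 thus had like mean normalised counts in the wild type, 170 and 162, and different ones in caa39, 43.5 and 9.51.

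Spread between libraries was small in most of the 10 families. The coefficient of variation ran from 3.10% to 12.4% in the wild type, with a median of 6.39%, and from 1.69% to 26.4% in caa39, with a median of 9.88%. The SD exceeded that of counting alone in 5 families in the wild type and in 6 in caa39. No wild-type library was the highest in more than 4 of the 10 families. In caa39, library c, which has the fewest reads, was the lowest in 7 of 10 and library a in 0. Leaving out library c moved the ratio of ATCOPIA12 to 0.281 and that of ATCOPIA36 to 0.696. Leaving out any of the 6 libraries moved no ratio of the 10 by more than 1.15-fold.

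**Figure D3:**
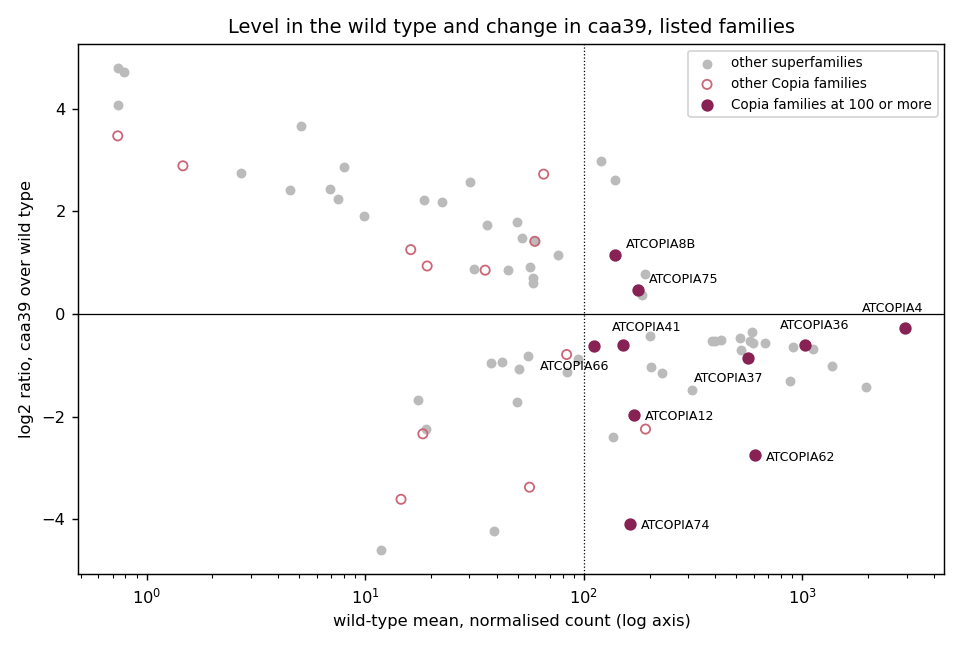
Wild-type mean (x axis, normalised count, log axis) against the log2 ratio of caa39 over wild type (y axis) for the 79 listed families with wild-type reads. Filled points are the 10 Copia families right of the dotted line at 100, open points the other Copia families (the one right of the line is ATCOPIA93, left out by name) and grey points other superfamilies. Of the 10 filled points 8 lie below 0.

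Families near the limit of 100 changed in both directions. Just inside lay ATCOPIA66, at 111 ± 7.52 and falling, and ATCOPIA8B, at 139 ± 7.60 and rising. Just outside lay ATCOPIA3, which went from 83.5 ± 9.59 to 48.3 ± 8.49, and ATRE1, which went from 65.5 ± 19.7 to 435 ± 27.2, a 6.63-fold rise in the authors' deposited table (SD, n = 3 each). Below the limit, and without the families left out by name, 7 of 11 Copia families were higher in caa39, with a median log2 ratio of 1.42 against −0.62 for the 10 families above it and −0.35 for all 83. Families of other superfamilies at 100 or more in the wild type numbered 23, of which 19 were lower, with a median log2 ratio of −0.56. Among these, 4 of 5 Gypsy families, the other large group of retroelements with long terminal repeats, were lower, with a median of −0.52. The wild-type level was part of the choice, so no test was made of these differences, and the direction is not called particular to Copia. Only families past the authors' threshold are listed, so one with hardly any wild-type reads could enter only by being higher in caa39. ATCOPIA86, for example, went from 0.737 to 8.20 normalised counts. The directions below the limit are thus partly set by that filter. At least 2-fold falls were listed for 3 of the 10 (25.3% of all listed families) and at least 2-fold rises for 1 (36.1%). In 10 of 10 the libraries of the genotypes did not overlap (98.8% of all listed families).

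**Figure D4:**
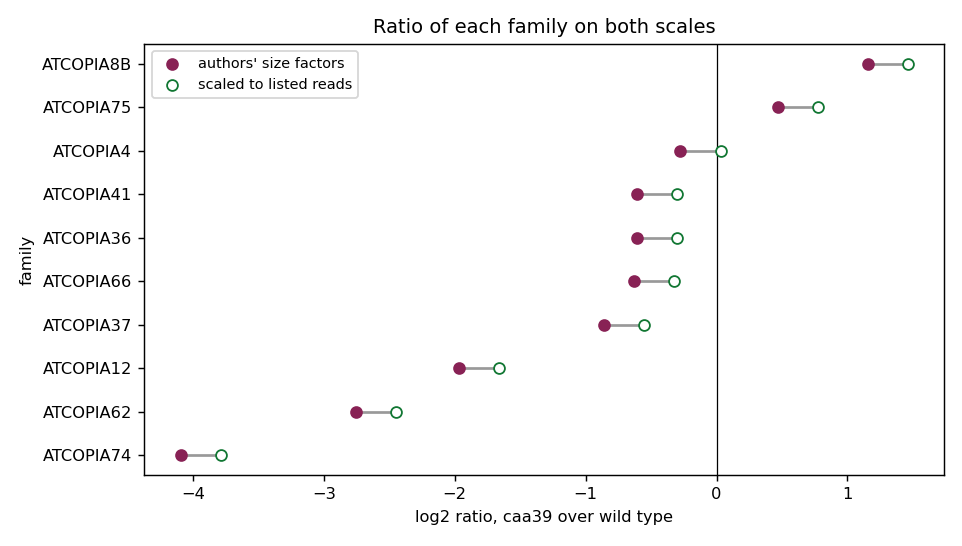
Log2 ratio of caa39 over wild type (x axis) for each of the 10 families (y axis), with the authors' size factors (filled) and with libraries scaled to their listed reads (open). Every family moves to the right by about the same amount, and ATCOPIA4 alone crosses 0.

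Scaling to listed reads raised log2 ratios by 0.31, which is the fall of the listed total that this scale takes out by construction. Relative to that scale 7 of the 10 families were lower and 3 higher, ATCOPIA4 being the one that turned. Ratios then were 0.0726 for ATCOPIA74, 0.183 for ATCOPIA62, 0.317 for ATCOPIA12 and 0.682 for ATCOPIA37, and between 0.800 and 0.811 for ATCOPIA66, ATCOPIA36 and ATCOPIA41. ATCOPIA75 stood at 1.71 and ATCOPIA8B at 2.76. Libraries of the genotypes overlapped for ATCOPIA4 and ATCOPIA41 and were apart for the other 8. The share of all listed families with libraries apart was not counted on that scale, so nothing is read from this count. Limma's threshold was passed by 5 lower and 2 higher members on that scale (34.9% and 48.2% of all listed families) and by 8 and 2 with the authors' size factors (50.6% and 47.0%). These counts describe a list already chosen on the same values and are no test of the members.

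Each of the 10 was also set beside the listed family, among the 73 others, whose values over the 6 libraries ran most alike. The measure was the Euclidean distance between log2 values centred on each family's mean. Of the 10 nearest families 1 was a Copia family, against 15 of the 73 compared (20.5%). ATCOPIA66 ran closest to ATLANTYS2, a Gypsy family, at a distance of 0.0992 against a median of 2.11 over the 73. ATCOPIA41 ran closest to the Helitron family ATREP10D (0.199), ATCOPIA4 to the short interspersed family ATSINE2A (0.214) and ATCOPIA36 to the MuDR family ATMU10 (0.216). For ATCOPIA37 it was HELITRON1 (0.259), for ATCOPIA75 VANDAL1 (0.281), for ATCOPIA8B ATDNAI27T9C (0.366) and for ATCOPIA12 ATREP9 (0.617). The nearest distances of ATCOPIA12, ATCOPIA62 and ATCOPIA74, the members with the deepest falls, were larger than those of the other members. For ATCOPIA12 the median over the 73 was 3.28. ATCOPIA62 lay 0.899 from ATHPOGON2, against a median of 4.22, and ATCOPIA74 lay 1.46 from ATCOPIA50, against a median of 5.84, both families with under 60 normalised counts in the wild type (19.0 and 56.5). Among themselves the closest pair was ATCOPIA36 with ATCOPIA41, at 0.265.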

How the data were processed

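RNA libraries of 3 wild-type and 3 caa39 samples were grouped by their labels. FastQC 0.10.1, Bowtie2 and edgeR 1.12.0, and the build TAIR10, stand in the submitters' processing notes without a role. The sources do not say how reads, multiply matching ones included, were assigned to families, nor which test was used. Of 84 entries 1, unassigned elements, stayed out of all fits and held 28.3% of listed reads. Per the file headers, the deposited signal is a mean of normalised read counts per genotype. The authors' ratio is caa39 over wild type, and the log2 column deposited beside it is the log of that ratio. For 4 families, none of them a member, the deposited wild-type mean is 1 where the overall mean gives 0. Their wild-type counts were taken as 0, and their ratios enter the counts and medians as deposited. The p-value deposited is raw and adjusted.

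Reads per library were solved as whole numbers from the deposited means, within 1e-14 relative or 2e-13 absolute tolerance and size factors of 0.33 to 1.67. Each of 78 distinct wild-type and 84 caa39 means had exactly 1 solution. Of those tried again after a small random shift, 62 and 75, a solution was found for 0. Simulated means were recovered in 84 of 84 entries per genotype. SDs are of solved counts over size factors, and the counting SD is the root of the mean Poisson variance over the libraries. Limma 3.58.1 (R 4.3.3) was fitted to log2 of the normalised count plus 0.5 over all 83 named families, with Benjamini-Hochberg adjustment, for SEs. Its counts of calls are no test of the members, since the rule used the same values. On simulated data for this comparison, with 83 families, it called 14 of 20 families changed 2-fold and 0 of 63 unchanged ones. The simulation gave all families the same dispersion and left most unchanged, while every listed family had passed the authors' threshold. Its rates therefore do not carry over to these data. Python 3.11.15, numpy 2.4.6, pandas 2.3.3, numba 0.67.0 and matplotlib 3.10.9 served the rest.

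Members, lists and alternatives were chosen with earlier results of these data known. Named were every member, the 2 Copia families nearest below the limit and the family nearest in pattern to each member. Total sequencing depth is unknown.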

Additional observations from a re-analysis of the deposited data

How the results depend on the processing

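Counts of falling and rising families were 8 and 2. At a 2-fold minimum 3 and 1 were left, and at a wild-type mean of 200 or more 4 and 0; fewer is what these limits construct. At a wild-type mean of 50 or more 10 fell and 4 rose. On the scale of listed reads limma called 5 lower, without ATCOPIA36, ATCOPIA41 and ATCOPIA4, the last at a ratio of 1.02 (log2 0.031), and 1.02 also when scaled to named families. The median limma log2 fold change of the 10 was −0.62 and −0.31 on that scale, and the ratio of the sums was 0.707, 0.876 on that scale and 0.596 without ATCOPIA4. With each library left out in turn, limma called 8 lower and 2 higher, as with all libraries (50.6% and 47.0% of all listed families). Shares of all listed families were not counted with a library left out, so nothing is read from these counts. The median log2 fold change of the 10 was then −0.71 to −0.57 and the ratio of the sums 0.696 to 0.724. Of 90 alternative ratios 72 moved by less than 1 SD, and those that moved further all came from rescaling. Fits on listed reads and limma with a library left out were chosen after seeing the data. No paired analysis was possible because the solved libraries carry no replicate numbers. Depth limits ATCOPIA74, on 33 caa39 reads.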
